A study of Mus musculus with 45 samples.

Results

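The Platr genes are mouse loci named for pluripotency-associated transcripts, and nearly all of them make long noncoding RNAs. Every gene whose symbol starts with Platr was taken from the bulk gene tables, which gave 28 of 55401 genes. All 28 were in each of the 4 RNA-seq experiments of the series, which asked how the histone H3K9 methyltransferase EHMT2 (G9a) and the chromatin protein DPPA4 act on gene expression in mouse embryonic stem cells (mESCs). The series had 45 libraries in 15 groups of 3.

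The time course and the washout used EHMT2-dTAG-mcherry mESCs of BL6/129 background, in which both copies of Ehmt2 carry a degron and the compound dTAG-13 ("dTAG") removes the protein. Clones E2-17, E2-20 and E2-K71 each gave 1 library per group, so each control also carried the degron allele. Cells received DMSO or dTAG for 24 h or 7 days in the time course. In the washout they received DMSO for 15 days, dTAG for 15 days, or dTAG for 7 days and then DMSO for 8 days ("Recovery"). The sorted experiment used EHMT2-dTAG-mcherry-mervl-gfp cells after 72 h of DMSO or dTAG. A MERVL-driven GFP reporter split them into GFP-negative mESCs and GFP-positive 2-cell-like cells (2CLCs), 3 numbered replicates each. The reporter line was grown from picked colonies, and GFP reports the retroviral promoter that defines the sorted state. The Dppa4 experiment used WTJ1 wild-type mESCs and DPPA4KO mESCs made with CRISPR/Cas9, each treated for 48 h with DMSO or with UNC0638, an inhibitor of EHMT1 and EHMT2.

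Platr genes were named for RNAs found in embryonic stem cells that are lost as these cells differentiate. Long noncoding RNAs can act in trans through proteins they bind, or mark transcription that acts on neighbouring genes, and depletion of Platr14 or Platr4 is known to alter stem cell differentiation. 2-cell-like cells are rare cells in mESC cultures that transcribe MERVL retroviruses and genes of the 2-cell embryo, among them Zscan4 genes and Dux. Some noncoding RNAs begin in or near such repeats.

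The 28 genes lay on 12 chromosomes, 7 of them on chromosome 2. The files class 19 as lincRNA, 6 as processed transcript, 1 as antisense (Platr31, at Tigar), 1 as sense intronic (Platr32, at Alpk3) and 1 as protein coding (Platr25). Their exonic length ran from 375 to 6180 bases. An exon of 4 members covered an exon of another gene, and 4 members shared over 1% of their 100-base sequence windows with other genes. Platr30 shared 90.1% of its windows, Platr16 shared 33.9% with Gm13230 and Platr9 shared 9.14% with Cga, beside 3.07% for Platr31. These were the same 4 members. Windows on either strand were compared, so a gene that overlaps the member at its own locus counts as sharing. Gm13230 and Cga overlap Platr16 and Platr9 in this way. Platr31 shared windows with 9 genes, among them Arsk, Ctf2 and Fam172a, which do not overlap it. Reads of these 4 members could be shared with any of the genes that share their windows, and how far was not tested. The counting strand was not given in the sources used here, so reads of Platr31 and of the overlapping Tigar could not be told apart where their exons meet.

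The time course, washout and sorted tables held 1 authors' mean of normalized counts per group, with no value per library. Comparisons in these tables therefore have no error and no test, and each table was normalized on its own. The Dppa4 table gave every library, at 8399885 to 12710949 gene reads. The Platr genes took 0.0208% to 0.0462% of these reads. Dppa4 had 700 to 920 normalized counts in wild-type DMSO libraries, 726 to 775 with UNC0638 and 0 in all 6 knockout libraries. All 6 stem cell markers (Pou5f1, Sox2, Nanog, Esrrb, Zfp42 and Klf4) passed the low-count filter there. The third UNC0638-treated knockout library stood apart from its group. In bulk RNA, fewer cells of a type and less RNA per cell cannot be told apart.

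Per kilobase of exon, Platr10 and Platr14 had the highest authors' means of the 28 genes in every time-course, washout and sorted mESC group. Platr10 (chr3:75647446-75655731, minus strand) had an authors' mean per kilobase of 691 and Platr14 (chr2:104559163-104571429, plus strand) of 585 in DMSO at 24 h. Platr10 alone made up 39.4% of the summed normalized counts of the 28 genes there, and 67.9% in DMSO at 15 days. Of the 28 genes, 21 reached a group mean of at least 20 normalized counts in some table. The other 7 (Platr1, Platr9, Platr19, Platr28, Platr29, Platr30 and Platr32) stayed at or below 17.3.

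The Platr genes split between the sorted 2CLCs and mESCs. In DMSO, 23 of the 28 genes had a mean of at least 5 in either sorted group. Of these, 8 were past 2-fold higher in 2CLCs and 5 past 2-fold lower, on the scale of log2(mean + 1). Over all genes with such a mean, 28.6% were past 2-fold, 3945 of 20783 higher and 1997 lower. Among 2130 long noncoding RNA genes, 31.0% were higher and 13.2% lower. The median log2 ratio was 0.02 over the Platr genes and 0.01 over all genes. As a check of the sort, all 22 genes of a 2-cell stage list were higher in 2CLCs, with a median log2 ratio of 7.34.

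Platr31 had the highest ratio of the 23. Its authors' mean was 4.91 normalized counts in DMSO mESCs, 289 in DMSO 2CLCs, 15.6 in dTAG mESCs and 444 in dTAG 2CLCs. The 2CLC mean was 58.9 times the mESC mean in DMSO and 28.5 times in dTAG. Tigar, the gene on the opposite strand, which encodes a regulator of glycolysis and apoptosis, had 691, 1123, 741 and 1290 in the same order. Its ratio in DMSO was 0.70 on the log2 scale, against 5.62 for Platr31.

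Platr31 lies at chr6:127100297-127110467 (GRCm38, plus strand) and has 3 exons of 116, 183 and 1167 bases. Of its 1466 exonic bases, 122 (8.32%) lie in Tigar exons, all of them in the third exon. Its first and second exons, which lie outside Tigar exons, are printed because they belong to the member most enriched in 2CLCs. The sequence is that of GENCODE M21, 5′ to 3′, with the second exon (chr6:127108389-127108571) in capitals after the first (chr6:127100297-127100412).

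Platr31-201: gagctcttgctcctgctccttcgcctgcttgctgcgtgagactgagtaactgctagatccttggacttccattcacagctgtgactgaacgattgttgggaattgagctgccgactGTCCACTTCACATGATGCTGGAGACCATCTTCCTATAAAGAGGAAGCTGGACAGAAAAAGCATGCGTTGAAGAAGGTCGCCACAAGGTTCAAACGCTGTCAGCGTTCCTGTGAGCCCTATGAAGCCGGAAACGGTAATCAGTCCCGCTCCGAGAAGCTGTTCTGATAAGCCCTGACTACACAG

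Platr25, the member classed as protein coding, had the most normalized counts of those higher in 2CLCs, with a mean of 161 in DMSO mESCs and 673 in DMSO 2CLCs, 4.19 times as much. In dTAG it had 289 and 1084. Platr16, which lies beside and partly over Gm13230, had 8.27 and 42.2 in DMSO and 29.6 and 61.6 in dTAG. Gm13230 itself had 60.5 and 228 in DMSO and 219 and 396 in dTAG. These genes overlap exon over exon on the same strand, so their counts are not separate measurements. Platr27 had 23.3 and 61.1 in DMSO and 22.8 and 64.6 in dTAG. The means of Platr27 were alike with and without dTAG in each sorted state. Platr5 (2.72 and 17.3 in DMSO), Platr3 (22.6 and 50.2), Platr8 (4.21 and 15.0) and Platr30 (0.775 and 10.9) were past 2-fold in DMSO. In dTAG these last 4 had log2 ratios of 0.98, 0.26, 0.43 and 0.67.

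**Figure D1:**
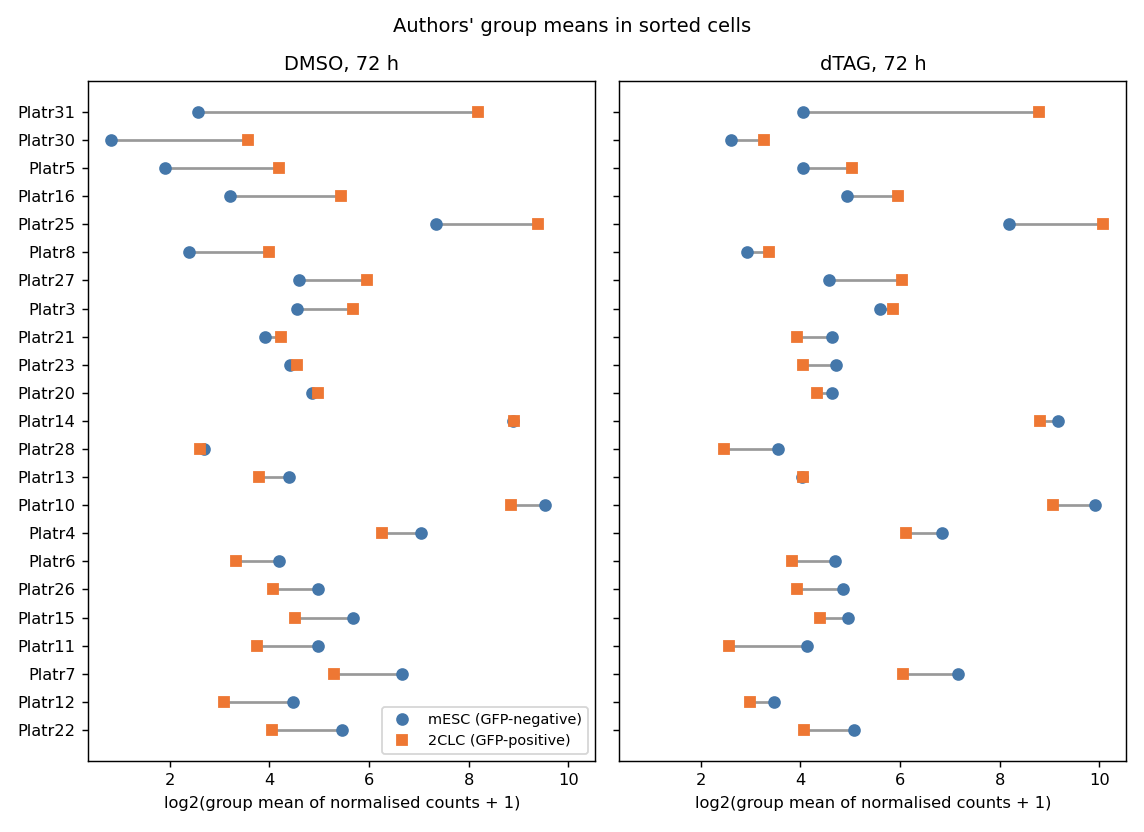
Authors' mean normalized counts of Platr genes in GFP-negative mESCs and GFP-positive 2CLCs after 72 h of DMSO or dTAG, each symbol 1 group mean on the scale of log2(mean + 1), with no error because the table held none. The Platr31 symbols stand farthest apart (means of 4.91 and 289 in DMSO), whereas Platr22, Platr7 and Platr11 have their 2CLC symbols to the left of the mESC ones.

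In all, 5 members were past 2-fold lower in DMSO 2CLCs. Platr7 had 100 in mESCs and 38.1 in 2CLCs, a mean 2.64 times lower. Platr22 had 42.8 and 15.6, Platr11 30.7 and 12.5, Platr15 50.1 and 21.9, and Platr12 21.2 and 7.49. Platr11 lies 72113 bases from Eomes, a T-box factor of mesendoderm. In dTAG, Platr7 (143 and 65.3), Platr22 (32.6 and 15.7) and Platr11 (16.6 and 4.90) were again past 2-fold lower. Platr28 (10.6 and 4.51) was the fourth. The higher members in dTAG were Platr31, Platr25, Platr16 and Platr27, which made 4 higher and 4 lower of 23. Over all genes 25.9% were past 2-fold in that comparison, and the Platr median log2 ratio was -0.49 against -0.03 for all genes. With a pseudocount of 5, 5 of the 23 Platr genes were past 2-fold in dTAG, without the share of all genes at that setting.

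Platr14, Platr10 and Platr4 were under 2-fold between the sorted states. Platr14 had 472 in DMSO mESCs and 480 in DMSO 2CLCs. Platr10 had 740 and 463, with log2 ratios of -0.68 in DMSO and -0.83 in dTAG. Platr4, whose gene overlaps Gm6069, had 132 and 76.1 in DMSO. Platr10 accordingly made up 37.7% of the summed Platr counts in DMSO mESCs and 19.4% in DMSO 2CLCs. The others at 20 or more in some table were under 2-fold in both sorted comparisons. Platr13 had 20.0 in DMSO mESCs and 12.8 in DMSO 2CLCs, Platr26 had 30.3 and 15.8, and Platr6 had 17.3 and 9.10. Platr20 (27.9 and 30.6), Platr21 (14.1 and 17.9) and Platr23 (20.3 and 22.4) had means closer together. Platr23 starts 251 bases from Zfp281, a zinc finger factor of stem cells, on the other strand. In the time course and washout Platr23 had means of at most 0.606. Per the study's methods those were TruSeq Stranded mRNA libraries, whereas the sorted cells gave low-input libraries made elsewhere. The tables were also normalized apart. The reason for the difference was not tested.

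Per kilobase of exon, Platr14 (304), Platr10 (265), Platr31 (197), Platr3 (122) and Platr25 (109) led in DMSO 2CLCs.

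Other genes of the pluripotent state gave a reference. Of 22 pluripotency network genes, 9 were past 2-fold lower in DMSO 2CLCs and 1 higher, with a median of -0.79. The higher gene was Dppa3, a maternal factor that also marks naive mESCs, at 3.54. Of 22 other long noncoding RNAs, 3 were higher and 6 lower. In the same comparison 2 of 7 fibroblast feeder markers and 7 of 15 differentiated lineage markers were past 2-fold higher in 2CLCs, and 3 of the 15 were lower (Sox1 at -2.74). The summed feeder list had 7749 normalized counts in DMSO mESCs and 4822 in DMSO 2CLCs. The part of these markers in the Platr values was not tested.

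EHMT2 depletion within a sorted state was read next. In GFP-negative mESCs, Platr3, Platr16, Platr5, Platr31 and Platr30 were past 2-fold higher with dTAG and Platr12 lower, 6 of 23, against 10.6% of all genes. With a pseudocount of 5, or with a mean of at least 20, the Platr count was 3, without the share of all genes at these settings. Platr5 had means of 2.72 and 15.5, Platr16 of 8.27 and 29.6, Platr3 of 22.6 and 47.6, and Platr12 of 21.2 and 10.1. The Platr median was 0.37 and that of all genes 0.02. In 2CLCs, 1 of 23 was past 2-fold with dTAG, against 11.4% of all genes. This was Platr11, at 12.5 in DMSO and 4.90 in dTAG. Platr31 (log2 ratio 0.62) and Platr25 (0.69) were under 2-fold there.

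Markers of other cells also differed within the sorted states. All 22 genes of the 2-cell stage list were past 2-fold higher with dTAG in GFP-negative mESCs, with a median of 3.70. Feeder markers were higher for 4 of 7 in mESCs and 6 of 8 in 2CLCs. The share of these markers in the Platr values was not tested.

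In unsorted cells, no Platr gene with a mean of at least 5 was past 2-fold after 24 h of dTAG on the scale of log2(mean + 1). This was 0 of 23, against 7.38% of all genes and a Platr median of -0.07. Plain ratios of means, without the added 1, were 2.16 for Platr5 and 0.476 for Platr1. After 7 days 7 of 25 were past 2-fold, against 11.8% of all genes. Platr28, Platr25, Platr16, Platr6, Platr5 and Platr31 were higher and Platr32 lower. Among 1286 long noncoding RNA genes, 15.0% were higher and 13.1% lower at 7 days. The Platr count at 7 days was 4 with a pseudocount of 5 and 3 with a mean of at least 20, without the share of all genes.

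Markers of other cell states also differed in these unsorted cultures. All 22 genes of the 2-cell stage list were past 2-fold higher with dTAG, at a median of 3.27 at 24 h and 4.40 at 7 days. At 7 days 2 of 8 feeder markers and 3 of 15 differentiated lineage markers were also higher. Their part in the Platr values was not tested.

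Platr25 had authors' means of 148 (DMSO 24 h), 201 (dTAG 24 h), 160 (DMSO 7 days) and 353 (dTAG 7 days). Platr16 had 41.8, 70.0, 46.1 and 142 in that order. Gm13230, which shares sequence with Platr16, had 219, 371, 233 and 926. Both Platr25 and Platr16 were therefore highest in dTAG at 7 days, with dTAG above DMSO at each time. Platr31 was near the lower end of the range, at 0.986, 3.97, 0.617 and 7.91. Platr10 had 1206, 1526, 1448 and 1725, and Platr14 had 924, 809, 837 and 883, all under 2-fold. Platr13 had 89.8, 55.3, 57.2 and 43.1, lower with dTAG at each time and also lower in DMSO at 7 days than at 24 h. Between the DMSO groups at 7 days and 24 h, 1 of 23 was past 2-fold (Platr30, 4.64 and 11.8), against 3.46% of all genes.

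After 15 days of dTAG, Platr25, Platr16 and Platr31 were past 2-fold higher on the scale of log2(mean + 1). They were 3 of 22, with none lower, against 7.82% of all genes. Plain ratios of means, without the added 1, also passed 2-fold for Platr28 (2.26), Platr5 (2.06) and Platr15 (2.02). Among 1257 long noncoding RNA genes, 15.6% were higher and 2.86% lower. The authors' means of Platr31 were 1.26 in DMSO, 21 in dTAG and 0.915 in Recovery, so its dTAG mean was 16.7 times that of DMSO. Platr16 had 5.53, 22.6 and 13.3, and Platr25 had 68.0, 170 and 142. After washout Platr31 thus stood near its DMSO level, whereas Platr25 and Platr16 stood between their DMSO and dTAG levels. All 22 genes of the 2-cell stage list were past 2-fold higher after 15 days of dTAG, with a median of 4.59, as were 3 of 16 differentiated lineage markers and 0 of 9 feeder markers. Their part was not tested.

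Against DMSO, Recovery left Platr25 (log2 ratio 1.05) and Platr16 (1.13) past 2-fold higher and Platr30 (-1.20) lower, 3 of 20, with 3.66% of all genes past 2-fold. Against 15 days of dTAG, Recovery had 2 of 22 past 2-fold lower, Platr6 at -1.07 and Platr31 at -3.52, with 9.89% of all genes. Both comparisons share the Recovery libraries. With a pseudocount of 5 each had 1 Platr gene past 2-fold, without the share of all genes at that setting. Of 21 genes of the 2-cell stage list, 0 were past 2-fold between Recovery and DMSO, with a median of 0.59. Against dTAG, 22 of 22 were lower in Recovery, with a median of -4.00. Feeder markers were past 2-fold lower in Recovery for 5 of 9 against DMSO and 6 of 9 against dTAG, with medians of -1.13 and -1.22. The part of these markers in the Platr values was not tested.

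**Figure D2:**
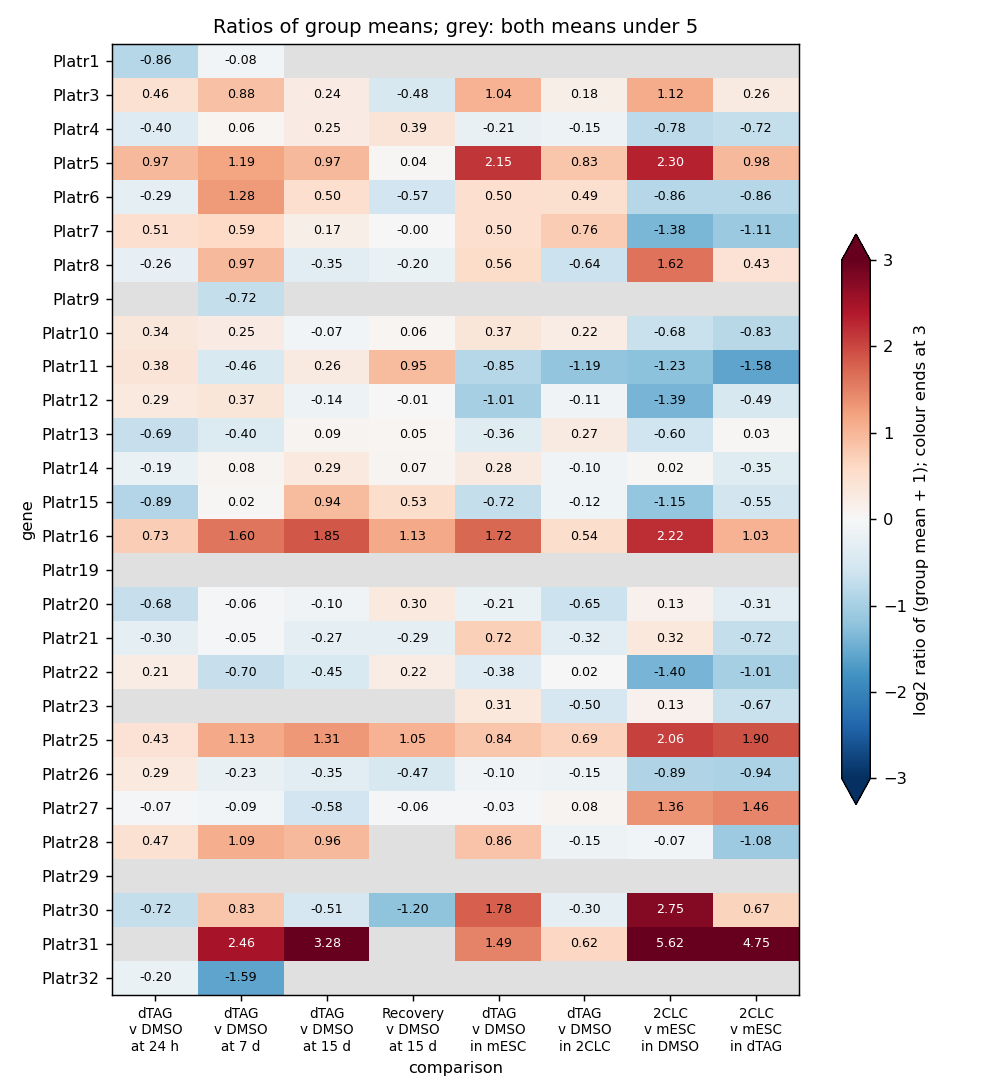
Heat map of log2 ratios of authors' means plus 1 for the Platr genes in the time course, washout and sorted comparisons, with colours ending at 3 and grey where both means were under 5. Platr31 is red for dTAG at 7 and 15 days and for 2CLCs against mESCs, and Platr14 stays between -0.35 and 0.29.

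The Dppa4 experiment had replicate values and so a test. DPPA4 is a DNA-binding protein that works with DPPA2 and is needed for the 2-cell-like state. Of the 28 Platr genes, 21 passed a filter on low counts and the other 7 did not, with means over the 12 libraries of at most 4.67. Platr14 and Platr3 fell in Dppa4 knockout cells in DMSO and Platr14 fell in UNC0638, while UNC0638 raised Platr14 in knockout cells. No Platr gene was called for UNC0638 in wild-type cells, where 0% of all genes were called. Calls needed an adjusted p under 0.05 (limma, Benjamini-Hochberg over 17258 genes) and a change of at least 2-fold.

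Platr14 was the member with the clearest difference between genotypes. In DMSO its normalized counts were 297, 448 and 307 in wild-type libraries and 47.9, 82.5 and 82.4 in knockout libraries. No knockout value reached the lowest wild-type value, and the mean of 350 ± 84.4 (SD, n = 3) was 4.94 times that of 71 ± 19.9 (SD, n = 3). The log2 change was -2.30 ± 0.29 (SE; limma, adjusted p = 0.000444). With UNC0638 the counts were 733, 505 and 472 in wild-type and 155, 301 and 197 in knockout libraries, again without overlap. There the log2 change was -1.41 ± 0.29 (SE; limma, adjusted p = 0.0119), and the call was lost without wild-type UNC0638 library 1 (limma, adjusted p = 0.0524).

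Platr3 lies at chr2:135648907-135652063 on the plus strand, 6948 bases from Plcb4, a phospholipase gene. In DMSO it had 133, 52.9 and 80.4 normalized counts in wild-type and 19.6, 3.06 and 39.5 in knockout libraries. The groups did not overlap, and the log2 change was -2.48 ± 0.62 (SE; limma, adjusted p = 0.0255). With UNC0638 the counts were 85.4, 64.5 and 123 against 27.6, 36.6 and 29.7. That difference of -1.47 on the log2 scale missed the threshold (limma, adjusted p = 0.192). The DMSO call of Platr3 was lost in 5 of 12 fits that left out 1 library, with adjusted p up to 0.0739 (limma): without any one of the 3 wild-type DMSO libraries or without knockout DMSO library 1 or 2.

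These 2 calls were 2 of 21 Platr genes, against 4.43% of all genes in the knockout comparison in DMSO. In UNC0638, 1 of 21 was called, against 3.29% of all genes. The median log2 change of the 21 was -0.53 in DMSO and -0.46 in UNC0638, beside -0.03 and -0.04 over all genes. In each, 6 of 21 members had a difference above 0. The members without a call had log2 differences from -3.85 (Platr5) to 0.75 (Platr13) in DMSO.

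**Figure D3:**
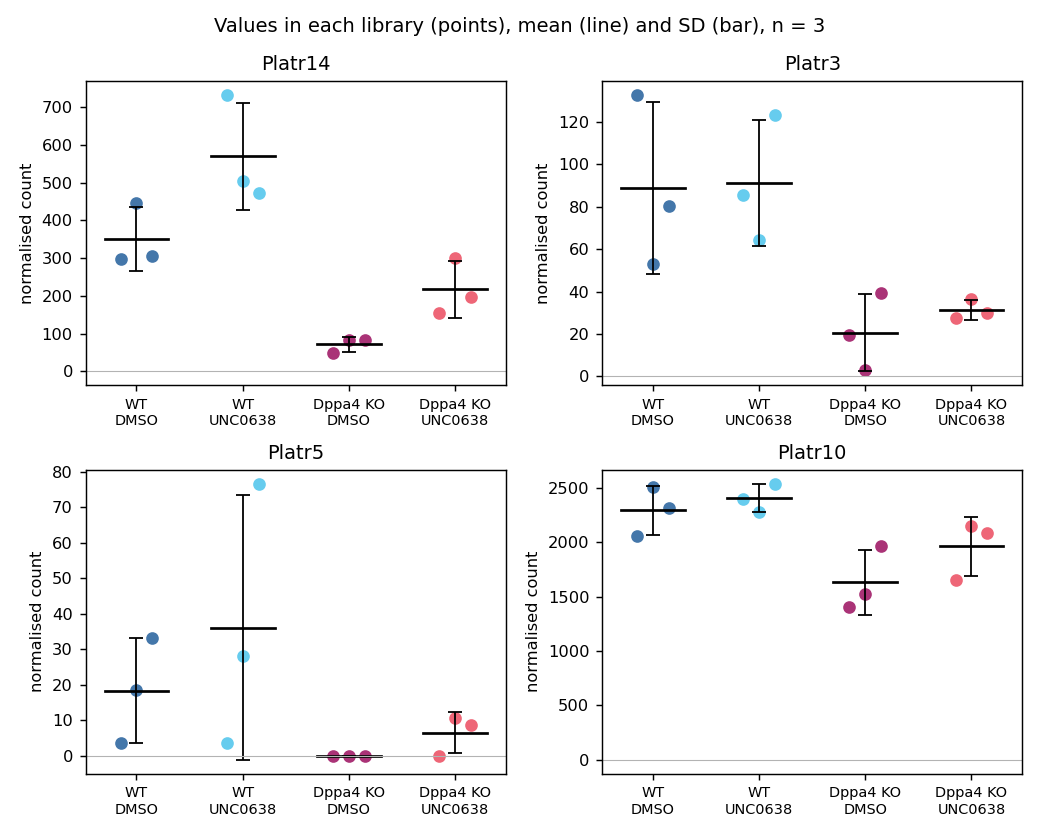
Normalized counts in each of the 12 libraries of the Dppa4 experiment, by genotype and treatment, as points with the mean (line) and SD (bar, n = 3) of each group, for Platr14, Platr3, Platr5 and Platr10 on linear axes. The 3 knockout DMSO points of Platr14 (47.9 to 82.5) lie below its 3 wild-type DMSO points (297 to 448).

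Platr5 (chr1:88754890-88755736, plus strand) had 3.49, 18.5 and 33.2 counts in wild-type DMSO libraries and no read in the 3 knockout DMSO libraries. With 3 reads over the knockout group as a floor, the wild-type mean of 18.4 ± 14.9 (SD, n = 3) was 17.5 times that floor. The floor bounds the knockout side only. Platr5 was not called (limma, adjusted p = 0.0524), but was with the replicate number as a block (limma, adjusted p = 0.0121). That block joins same-numbered libraries of both genotypes, a pairing that the labels do not give. With UNC0638 it had 3.52, 28.0 and 76.6 in wild-type and 0, 10.8 and 8.73 in knockout libraries, which overlap. Platr10 had 2054, 2504 and 2313 in wild-type and 1404, 1521 and 1966 in knockout DMSO libraries. The log2 difference of -0.50 was not called (limma, adjusted p = 0.0742). Platr4 had 185, 204 and 136 against 85.1, 108 and 158, so these groups overlapped.

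**Figure D4:**
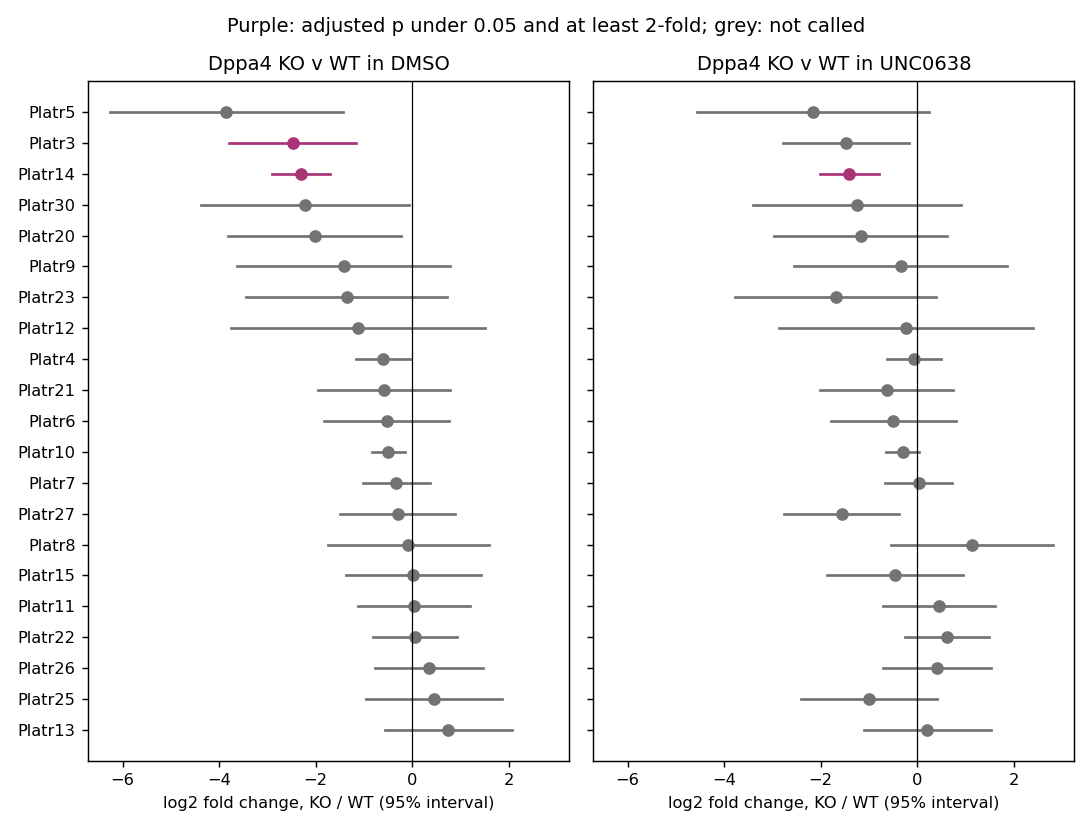
Log2 difference between Dppa4 knockout and wild-type libraries for the tested Platr genes, in DMSO and in UNC0638, with 95% intervals from limma, purple where the gene was called and grey where it was not. Platr14 is purple in both panels and Platr3 in DMSO, and most of the grey intervals cross 0.

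UNC0638 was tested within each genotype. In knockout cells Platr14 rose from 47.9, 82.5 and 82.4 to 155, 301 and 197, with no overlap. The log2 change was 1.59 ± 0.29 (SE; limma, adjusted p = 0.0318), and it was the only call among 21 Platr genes, against 0.464% of all genes (80 genes, or 155 with the replicate number as a block). Its call was lost without wild-type UNC0638 library 2 (limma, adjusted p = 0.0531), knockout DMSO library 1 (0.106), or knockout UNC0638 libraries 2 (0.155) or 3 (0.0529). In wild-type cells 0 of 21 were called by limma, edgeR or DESeq2, against 0% of all genes by limma and 14 genes by DESeq2. With the replicate number as a block, limma also called 0 of 21. At an unadjusted p under 0.05 the limma count was 1 of 21, Platr14, with a log2 difference of 0.70 (95% interval 0.09 to 1.31). The difference of the UNC0638 effects between genotypes was 0.89 for Platr14 (limma, adjusted p = 0.775), with 0% of all genes and 0 of 21 members called. Platr14 was also the 1 of 21 with an unadjusted p under 0.05 there (limma, 95% interval 0.03 to 1.75), and edgeR and DESeq2 called none. The median of the 21 was 0.26 in wild-type and 0.30 in knockout cells, beside -0.00 in each over all genes. Of 19 tested genes of the 2-cell stage list, 0 were called with UNC0638 in either genotype. In wild-type cells all 19 were above 0, with a median of 2.40, so an uncalled gene there is not shown to be unchanged. In knockout cells 3 of the 19 were above 0. Their part in the Platr values was not tested.

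Platr31, which had the highest ratio of 2CLCs to mESCs, had at most 12.2 normalized counts in any library of the Dppa4 experiment and was not tested. Platr25 had 17.5, 40.6 and 37.6 in wild-type DMSO libraries and 60.8, 53.3 and 123 with UNC0638. The log2 difference of 1.27 was not called (limma, adjusted p = 0.573). In knockout libraries Platr25 had 29.4, 31.6 and 74.3 in DMSO and 41.4, 114 and 9.60 with UNC0638. Platr15 ranged from 20.1 to 238 among the 3 knockout UNC0638 libraries alone. Platr27 with UNC0638 had 49.3, 86.0 and 86.2 in wild-type and 23.9, 10.8 and 48.9 in knockout libraries. The difference of -1.57 on the log2 scale was not called (limma, adjusted p = 0.124). It was called with the replicate number as a block over both genotypes (limma, adjusted p = 0.0455), a pairing that the labels do not give.

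The protein-coding neighbours within 100 kb of Platr14, Platr3 and the uncalled Platr5 were read in the same fit. Cstf3, a polyadenylation factor gene 19094 bases from Platr14, had a log2 difference of -0.56 between genotypes in DMSO (limma, adjusted p = 0.169). Hipk3, a kinase gene, had 0.81 (0.287) and Plcb4 had -0.69 (0.191), none of them called. Arl4c, 52669 bases from Platr5, differed by -0.98 (limma, adjusted p = 0.0158), under 2-fold.

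The promoters of Platr14 and Platr3 are printed because both members fell in Dppa4 knockout cells in DMSO. Sequences are those of RefSeq (GRCm38.p6), 5′ to 3′, from 250 bases before to 50 after the start. Capitals mark the match to the SOX motif CATTGTT, in Platr14. The Platr14 window is chr2:104559209-104559508 and the Platr3 window chr2:135646273-135646572, both on the plus strand. The Platr14 RefSeq start lies 296 bases downstream of its GENCODE start, so the whole printed window is inside the GENCODE gene. The Platr3 RefSeq start lies 2384 bases upstream of its GENCODE start, and its window ends before the GENCODE gene begins.

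Platr14: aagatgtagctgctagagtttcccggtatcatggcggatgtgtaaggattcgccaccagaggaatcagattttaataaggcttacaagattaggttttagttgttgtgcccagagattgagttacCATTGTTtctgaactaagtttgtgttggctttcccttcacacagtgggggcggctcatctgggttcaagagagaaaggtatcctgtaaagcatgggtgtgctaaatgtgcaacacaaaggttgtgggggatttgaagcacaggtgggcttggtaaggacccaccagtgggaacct

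Platr3: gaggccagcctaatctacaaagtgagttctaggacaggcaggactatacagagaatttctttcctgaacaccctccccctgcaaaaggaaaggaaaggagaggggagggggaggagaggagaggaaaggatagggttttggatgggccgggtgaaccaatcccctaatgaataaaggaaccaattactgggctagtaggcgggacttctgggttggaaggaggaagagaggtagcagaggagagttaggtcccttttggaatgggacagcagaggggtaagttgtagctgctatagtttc

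The RefSeq table held 15 promoters of 13 of the 28 Platr genes. Both strands were searched for 4 motifs, and the motifs are spelled here 5′ to 3′. CATTGTT stood in the promoters of Platr14 and Platr8, and in 3.78% of all 32851 promoters. The octamer ATGCAAAT, bound by OCT factors, stood in that of Platr21 and in 1.74% of all promoters. TCAAGGTCA, bound by ESRRB, stood in none of the 15 and in 0.423% of all, and GATTNAATC, the core of the DUX motif, in none and in 0.268%. A match is a description of the letters in the window.

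In the same DMSO knockout comparison, the pluripotency network list had 3 genes higher and 1 lower, with a median of 0.35 against -0.53 for the Platr genes. The lower gene was Dppa3, at -4.20. Of 22 other long noncoding RNAs tested, 2 were lower, with Miat at -3.30 and a median of -0.29. Of 19 genes of the 2-cell stage list, 10 were lower, and the summed list ran from 172 to 2899 normalized counts in wild-type DMSO libraries and from 4.89 to 11.6 in knockout DMSO libraries. None of 8 feeder markers was called, but all had differences below 0, with a median of -0.80. Of 12 differentiated lineage markers 1 was lower, Fgf5 at -2.97, with a median of -1.48 and 4 of 12 above 0. Their part in the Platr values was not tested.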

How the data were processed

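RNA-seq libraries of mouse embryonic stem cells were analysed from the authors' gene tables. Per the study's methods and the submitters' processing notes, reads were trimmed (Trim Galore 0.6.7), aligned to mm10 (GRCm38) with STAR 2.7.10, without introns and with multi-mapping reads placed at 1 random best position, and counted with TEcounts on GENCODE genes. Random placement and alignment without introns can lower or blur counts of spliced or repeat-rich noncoding RNAs. The authors deposited normalized counts, a signal divided by DESeq2 1.34.0 size factors: a mean per group in 3 experiments, a value per library in the Dppa4 experiment. Whole reads were recovered there for 100% of values (tolerance 0.01). Tables of the authors' own comparisons (fold changes, p-values, classes) were not used. Coordinates, exonic lengths and overlaps were taken here from GENCODE M21, whereas the study's methods name a later release for the counts.

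For the Dppa4 experiment, limma 3.58.1 (R 4.3.3) was fitted to log2(normalized count + 1) of the 12 libraries after edgeR's filterByExpr (17258 genes); calls needed an adjusted p under 0.05 and 2-fold. The added 1 understates changes of low genes. Alternatives used edgeR 4.0.16, DESeq2 1.42.0 and other filters, pseudocounts, thresholds and libraries. The method was tested on simulated data. For group means, log2 ratios of mean + 1 were counted past 2-fold where the larger mean was at least 5, with no test. Group means and figures were handled in Python 3.11.15. Labels give 3 clones per Dppa4 group without tying a number to a clone, so p-values measure the spread between these samples. Same-numbered wild-type libraries deviated together (r = 0.246, 0.103 and 0.431), which meets the pairing criterion; knockout libraries did not. Members with a group mean of at least 20 or a call were described with values. Members and lists were chosen with earlier results of these data known.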

Additional observations from a re-analysis of the deposited data

How the results depend on the processing

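Over 1975 alternative values of single members in the Dppa4 experiment, 1956 kept their side of the threshold, 11 lost and 8 gained a call. Direction was compared only for members called in the main fit, and none of these reversed. UNC0638 in knockout cells gave 1 call, which became 0 with a filter of at least 1 read (Platr14, limma adjusted p = 0.0600), 0 at an adjusted p under 0.01, and 0 to 1 when 1 library was left out (adjusted p 0.0150 to 0.155). The knockout in DMSO gave 2 calls, 1 at an adjusted p under 0.01, and 1 to 3 with 1 library left out. Platr5 joined under edgeR (adjusted p = 0.0478) and DESeq2 (0.00162), and in 4 of 12 fits without 1 library. In UNC0638 the knockout gave 1 call, 0 at an adjusted p under 0.01, and 0 to 1 with 1 library left out, the 0 being without wild-type UNC0638 library 1 (Platr14, limma adjusted p = 0.0524). The cause was not tested.

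With a replicate block, the knockout gave 3 calls in DMSO (Platr5 added, limma adjusted p = 0.0121) and 2 in UNC0638 (Platr27 added, 0.0455), and UNC0638 in knockout cells gave 1. In the knockout comparisons the block joined same-numbered libraries of both genotypes, which the labels do not pair. All-gene calls went from 765 to 1021, 567 to 753 and 80 to 155. Same-numbered knockout libraries had r of 0.15, -0.09 and 0.01, and 8 of 12 samples correlated best with their own number. For the time course, washout and sorted cells, no paired analysis was possible because their tables gave group means alone.

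Counts of Platr means past 2-fold moved as follows, given without the share of all genes at each setting. They show only how the Platr counts depend on the settings. With a pseudocount of 5 they were 4 (from 7) at 7 days, 0 (from 1) between DMSO groups, 1 (from 3) for Recovery against DMSO, 1 (from 2) against dTAG, 5 (from 8) for 2CLCs in dTAG, 3 (from 6) for dTAG in mESCs and 0 (from 1) in 2CLCs. With a mean of at least 20 they were 3, 0, 1, 3 and 0 for 7 days, DMSO groups, Recovery against DMSO, dTAG in mESCs and dTAG in 2CLCs. With any mean above 0, 24 h gave 2 (from 0) and dTAG in 2CLCs 2. At 1.5-fold, 24 h gave 7, 7 days 13, DMSO groups 2, 15 days 6 (from 3), Recovery against dTAG 9, 2CLCs in dTAG 16, dTAG in mESCs 11 and dTAG in 2CLCs 7. The 13 for 2CLCs in DMSO stayed within 1.5 times. Low counts limit Platr5, Platr30, Platr31 in mESCs and the 7 members not tested.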
